A study of Danio rerio with 6 samples.

Results

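The HSP70 and HSP90 families of molecular chaperones are described here by 10 of the 32105 genes in the count table. These were the genes named hspa8, hsp70l, hsp70.3, hsp70.1, hspa5, hspa9, hspa4a, hsp90aa1.2, hsp90ab1 and hsp90b1. Of them, 7 were found by symbol, hspa8 by symbol and neighbouring genes because 2 rows were named HSPA8, and hspa4a and hsp90aa1.2 by neighbouring genes because their rows were named HSPA4 and HSP90AA1. Transcripts were counted in 3 libraries of homozygous mutants of the line IT325 (allele t24980) and 3 of their wild-type siblings, kept on a mixture of wild-type strains. IT325 carries an ENU-induced premature stop in ikzf1, the gene of the lymphoid transcription factor Ikaros. The truncated protein keeps the zinc fingers that bind DNA and lacks C-terminal ones used for contact with other proteins. Each library was made from larvae at 5 days post fertilization, and the methods give 3 individual fish per genotype. A second ikzf1 line, fr105, was not analysed here.

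HSP70 proteins bind exposed hydrophobic stretches of unfolded proteins in a cycle of ATP binding and hydrolysis. J-domain proteins start the hydrolysis, and nucleotide exchange factors end it. HSP90 proteins act later, on nearly folded clients such as kinases and steroid receptors, with their own co-chaperones. Each family has constitutive cytosolic members, stress-inducible cytosolic members that heat shock factor 1 switches on, and forms for the endoplasmic reticulum (ER) and the mitochondrion.

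The libraries held 37390073 to 53279243 counts. Levels are given as CPM, each count divided by its library's size after TMM scaling (trimmed mean of M values) and put on a common scale. The ikzf1 transcript (IKZF1 in the list of names) was at 1167, 1767 and 1149 CPM in mutants, against 276, 306 and 300 CPM in wild type, a level that does not show the mutated base. The labels give the whole body as the source, and markers of several tissues were checked against this. Of 12 markers of skeletal muscle, neural tissue, lens and retina, 11 were matched, and none exceeded 0.873 CPM in any library. The 4 epidermis markers summed to 7.37 to 9.41 CPM in mutants, against 5.53 to 5.63 CPM in wild type, and the 4 liver markers to 1.73 to 21.9 CPM in mutants, against 4.36 to 19.6 CPM in wild type. The 2 neutrophil markers matched summed to between 23092 and 25532 CPM in mutants and between 14490 and 15382 CPM in wild type. The near absence of muscle, neural and eye markers thus goes against a label of whole body. It also goes against the methods, which describe RNA from homogenised embryos. The 5 erythroid markers summed to 20259 to 30680 CPM in mutants, against 5775 to 9172 CPM in wild type. The 2 macrophage markers matched summed to 278 to 330 CPM in mutants, against 111 to 174 CPM in wild type. The 5 T cell markers summed to 20.2 to 36.2 CPM in mutants, against 144 to 155 CPM in wild type. These shifts accompany every difference below, and their part in the chaperone values was not tested. In a bulk sample, fewer cells of a type and less RNA per cell cannot be told apart.

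All 10 chaperone genes passed the filter on low counts. Of these, 5 fell in mutants in edgeR's quasi-likelihood test (adjusted p under 0.05) and 0 rose, where 16.4% of the 17828 genes tested fell, 17.5% rose and 33.9% did either. At an unadjusted p under 0.05, 7 were lower and 0 higher, where 21.6% of all genes tested were lower. DESeq2 also called 7 lower and 0 higher, against 17.1% of all genes called lower by it. The stress-inducible hsp70.3, hsp70.1 and hsp90aa1.2 fell by 2.21- to 3.10-fold, and the constitutive hspa8 and hsp90ab1 by 18.0% and 17.7%. The ER members hspa5 and hsp90b1 and the mitochondrial hspa9 did not pass, nor did hspa4a and the inducible hsp70l. Mutant and wild-type levels did not overlap, with mutants lower, for 7 of the 10. Of all genes tested, 24.7% were separated in this way, 25.8% with mutants higher and 50.5% in either direction.

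**Figure D1:**
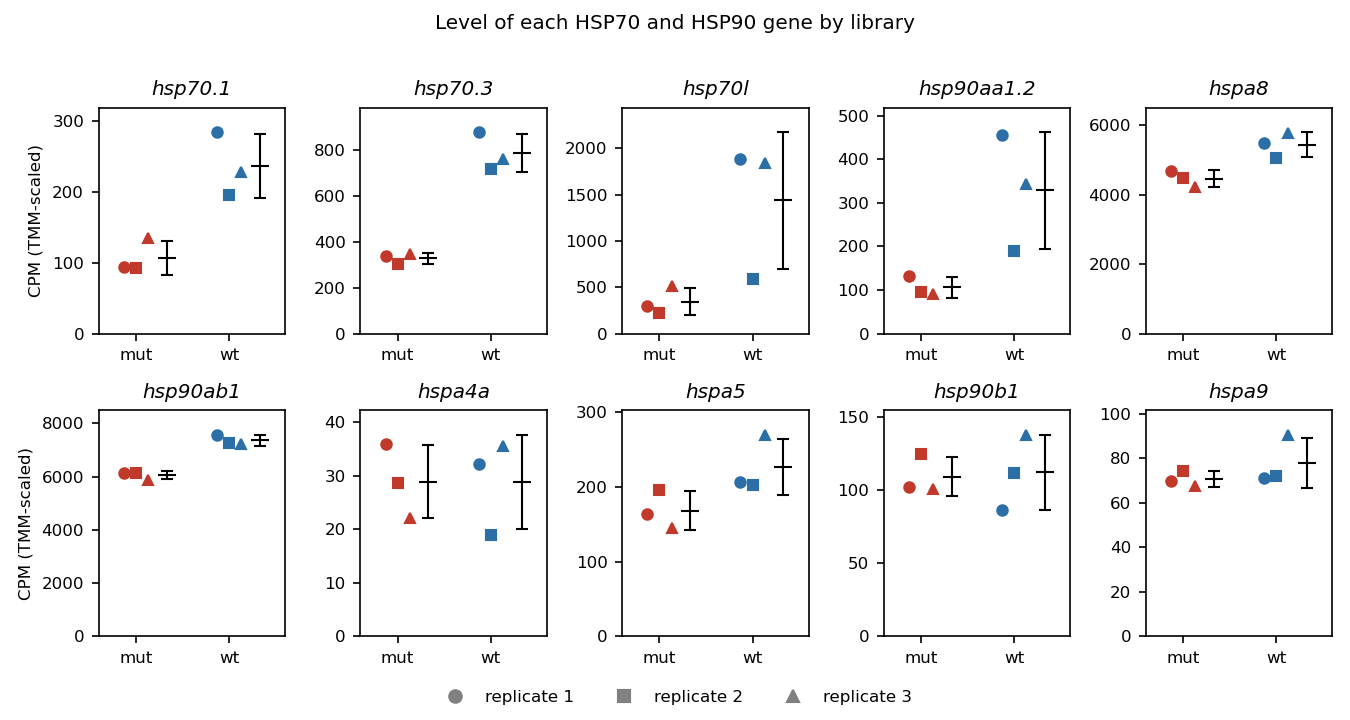
Level of each of the 10 genes in TMM-scaled CPM (vertical axis, from 0) in mutants (mut, red) and wild type (wt, blue). Symbols mark the replicate number and black bars the mean and SD of 3 libraries. The 4 stress-inducible genes come first. For hsp70.3 all mutants lie between 303 and 347 CPM and all wild-type libraries between 719 and 881 CPM, whereas the groups overlap for hspa4a, hsp90b1 and hspa9.

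Among the stress-inducible HSP70 genes, hsp70.3 (ENSDARG00000021924) gave the tightest difference. It was at 340, 303 and 347 CPM in mutants, against 881, 719 and 763 CPM in wild type. The genotypes were well apart, since neither spread by more than 1.23-fold within itself. Hsp70.3 averaged 330 ± 24.0 CPM in mutants against 788 ± 83.9 CPM in wild-type siblings (SD, n = 3 each). This was -1.25 on the log2 scale, mutant over wild type (SE 0.0947), with an edgeR adjusted p of 3.64e-05.

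Hsp70.1 (ENSDARG00000029688) lies in the same cluster, with hsp70.2 between it and hsp70.3 in the order of the table. It was at 93.9, 92.4 and 134.9 CPM in mutants, against 285, 196 and 229 CPM in wild type. All mutants were lower than all wild-type libraries. Its log2 fold change was -1.15 with an SE of 0.191 (edgeR adjusted p 0.00372). Hsp70.2 (ENSDARG00000092362, HSPA2 in the list of names) is not one of the 10 genes but is the third copy of the cluster. It was at 188, 185 and 249 CPM in mutants, against 549, 448 and 494 CPM in wild type, or -1.26 on the log2 scale (SE 0.131, adjusted p 2.35e-04 in edgeR). The copies are alike in sequence, so the split of counts between them is uncertain.

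Hsp70l (ENSDARG00000055723), an inducible HSP70 gene outside that cluster, had the lowest fitted fold change of the 10 genes and the widest spread. It was at 297, 228 and 510 CPM in mutants, against 1888, 590 and 1844 CPM in wild type. Wild type 2 stood close to mutant 3, while the other wild-type libraries were more than 3 times as high as either. Levels in wild type spanned a 3.20-fold range and those in mutants a 2.24-fold range. The log2 fold change was -2.06 (SE 0.583) and the edgeR adjusted p 0.0507, so it did not pass. Leaving out single libraries gave adjusted p-values from 0.0103 (without wild type 2) to 0.159 (without mutant 1). The other settings gave 0.00105 (DESeq2) to 0.0999 (no filter).

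Hsp90aa1.2 (ENSDARG00000024746, HSP90AA1 in the list of names) is the cytosolic HSP90 alpha gene of this set. It was at 132.7, 94.8 and 90.6 CPM in mutants, against 455, 189 and 343 CPM in wild type. The groups did not overlap, and wild type 2 was again the lowest wild-type library. The log2 fold change was -1.63 with an SE of 0.352 (edgeR adjusted p 0.0178), and 3.10-fold in linear terms. The adjusted p was above 0.05 without the filter (0.0585), and without mutant 2 (0.0675), mutant 3 (0.0803) or wild type 3 (0.0553). Its neighbour in the genome, hsp90aa1.1, known in zebrafish for its role in skeletal muscle, was at 0.896 to 3.59 CPM over the 6 libraries.

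The constitutive cytosolic hspa8 and hsp90ab1 fell by a small and even amount. Hspa8 (ENSDARG00000068992), the heat shock cognate protein that folds new chains and drives clathrin uncoating, was at 4690, 4484 and 4222 CPM in mutants, against 5488, 5057 and 5786 CPM in wild type. Hsp90ab1 (ENSDARG00000029150), the constitutive HSP90 beta gene, was at 6145, 6148 and 5877 CPM in mutants, against 7585, 7270 and 7232 CPM in wild type. In both genes every mutant library was lower than every wild-type library. Log2 fold changes were -0.29 (SE 0.0702, edgeR adjusted p 0.0141) for hspa8 and -0.28 (SE 0.0537, edgeR adjusted p 0.00426) for hsp90ab1. Without scaling factors they were -0.39 and -0.38, while the median of all genes moved from -0.01 to -0.11. Without wild type 1 the adjusted p of hspa8 was 0.0513.

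Hspa4a (ENSDARG00000004754) belongs to the HSP110 group, which exchanges the nucleotide of HSP70. It was at 35.9, 28.8 and 22.2 CPM in mutants, against 32.2, 18.9 and 35.7 CPM in wild type, with overlap. The log2 fold change was 0.0027 with an SE of 0.271 (edgeR adjusted p 0.995). Its paralog hspa4b rose, at 138, 125 and 132 CPM in mutants, against 106, 99.9 and 116 CPM in wild type (0.29 on the log2 scale with SE 0.0801, adjusted p 0.0216 in edgeR), but not without scaling factors (0.19, adjusted p 0.0993) or without mutant 1, wild type 1 or wild type 2 (adjusted p 0.0607, 0.0737 and 0.0788).

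The ER members differed from one another. Hspa5 (ENSDARG00000103846), the ER HSP70 known as BiP, was at 164, 197 and 145 CPM in mutants, against 207, 203 and 270 CPM in wild type. The groups did not overlap, but mutant 2 lay close to wild type 1 and 2. Its log2 fold change of -0.43 (SE 0.146) did not pass in edgeR (adjusted p 0.0545) and did with DESeq2 (adjusted p 0.0159). Hsp90b1 (ENSDARG00000003570), the ER HSP90 known as GRP94, was at 102, 124 and 101 CPM in mutants, against 86.6, 112 and 138 CPM in wild type. Wild type held both the lowest and the highest library. Its log2 fold change was -0.04 with an SE of 0.169 (edgeR adjusted p 0.881).

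Hspa9 (ENSDARG00000003035), the mitochondrial HSP70 or mortalin, which pulls proteins into the matrix, was at 69.7, 74.5 and 67.4 CPM in mutants, against 71.2, 71.8 and 90.6 CPM in wild type. All but wild type 3 lay between 67.4 and 74.5 CPM. The change was -0.14 on the log2 scale with an SE of 0.104 (edgeR adjusted p 0.322).

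The second row named HSPA8 (ENSDARG00000037403) matched hspa8b by 10 shared neighbours and was kept apart from hspa8. It had 131, 112 and 137 counts in mutants, against 6, 0 and 66 counts in wild type. The count of 0 in wild type 2 allows up to 3 counts, or 0.0708 CPM, for counting error only. Wild type 3 stood apart from the other wild-type libraries, and the log2 fold change of 2.62 (SE 1.08) had an edgeR adjusted p of 0.112.

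Ratios within a library do not depend on scaling and set inducible against constitutive paralogs. The denominators hspa8 and hsp90ab1 were themselves 18.0% and 17.7% lower in mutants. Hsp70.3 had 72.5, 67.5 and 82.3 counts per 1000 counts of hspa8 in mutants, against 161, 142 and 132 in wild type. Hsp70.1 had 20.0, 20.6 and 32.0 per 1000 in mutants, against 52.0, 38.8 and 39.5 in wild type. Neither ratio overlapped between the genotypes. Hsp70l had 63.2, 50.8 and 121 per 1000 in mutants, against 344, 117 and 319 in wild type, so here wild type 2 was below mutant 3. Hsp90aa1.2 had 21.6, 15.4 and 15.4 counts per 1000 counts of hsp90ab1 in mutants, against 60.0, 25.9 and 47.5 in wild type, without overlap. Hsp70.1, hsp70.3 and hsp70l were also summed, without hsp70.2, which is not one of the 10 genes. The sum was 177 ± 51.3 per 1000 of hspa8 in mutants, against 448 ± 134 in wild type (SD, n = 3 each). The ratio between these means was 0.394. Hsp70l, the gene with overlap, had the largest part of the sum, with means of 78.2 in mutants and 260 in wild type. Taken singly, the ratio between the means was 0.512 for hsp70.3, 0.557 for hsp70.1 and 0.301 for hsp70l. For the 3 genes together it was 0.413 without wild type 3. Leaving out each library in turn gave 0.329 (without mutant 3) to 0.448 (without wild type 1). For hspa5 and hspa9 the ratios to hspa8, itself lower in mutants, overlapped between the genotypes. Hspa5, lower in mutants without overlap in CPM, had 37.7 ± 5.31 counts per 1000 in mutants, against 41.5 ± 4.66 in wild type. Hspa9 had 15.8 ± 0.884 in mutants, against 14.3 ± 1.35 in wild type (SD, n = 3 each). Its mean CPM went the other way, at 70.5 in mutants and 77.9 in wild type. No test was run on these ratios. Together the 10 genes took 1.11% to 1.15% of all counts in mutants, against 1.51% to 1.74% in wild type. Unlike the ratios, this share of unscaled counts depends on the levels of all other genes. Most of it came from hspa8 and hsp90ab1.

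**Figure D2:**
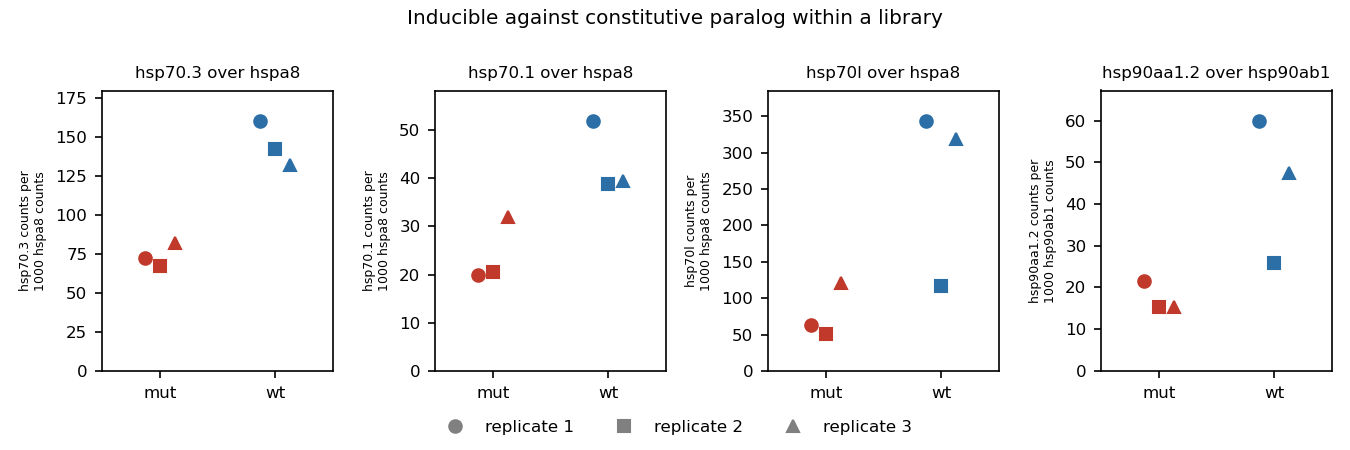
Counts of an inducible gene per 1000 counts of its constitutive paralog in the same library (vertical axes, from 0), for mutants (mut, red) and wild type (wt, blue), with symbols for the replicate number. Mutants are lower throughout for hsp70.3, hsp70.1 and hsp90aa1.2, while wild type 2 falls among the mutants for hsp70l (121 in mutant 3 against 117 in wild type 2).

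Wild type 3 was examined for how far it set the difference between the genotypes. It was the highest of the 3 wild-type libraries for 5 of the 10 genes, where 37.6% of all genes tested had it highest. These were hspa8, hspa4a, hspa5, hsp90b1 and hspa9, and none of them is stress-inducible. Relative to the mean of the other wild-type libraries it was 1.32 times as high for hspa5, 1.39 times for hsp90b1, 1.40 times for hspa4a, 1.27 times for hspa9 and 1.097 times for hspa8. Among the inducible genes it stood at 1.49 times that mean for hsp70l, 1.07 times for hsp90aa1.2, 0.954 times for hsp70.3 and 0.949 times for hsp70.1. Its ratio for hsp70l was thus above those of the ER and mitochondrial genes, although wild type 1 was higher still. Wild type 1 was the highest wild-type library for the 4 inducible genes and hsp90ab1, where 30.5% of all genes tested had it highest. Wild type 2 was the lowest for the 4 inducible genes and for 7 of the 10 genes, where 35.2% of all genes tested had it lowest. For hsp70l and hsp90aa1.2, wild type 2 stood at 0.316 and 0.472 times the mean of the others. For hsp70.3 and hsp70.1 it lay nearer to wild type 3, and wild type 1 stood at 1.19 and 1.34 times the mean of the others. Cell type markers also differed between the wild-type libraries. Each erythroid marker was highest in wild type 3 and lowest in wild type 2, with hbaa1 at 4802, 3966 and 6546 CPM. The macrophage markers matched were highest in wild type 3 and the neutrophil markers matched in wild type 2, while the T cell markers were divided. The part of this in the chaperone values was not tested.

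**Figure D3:**
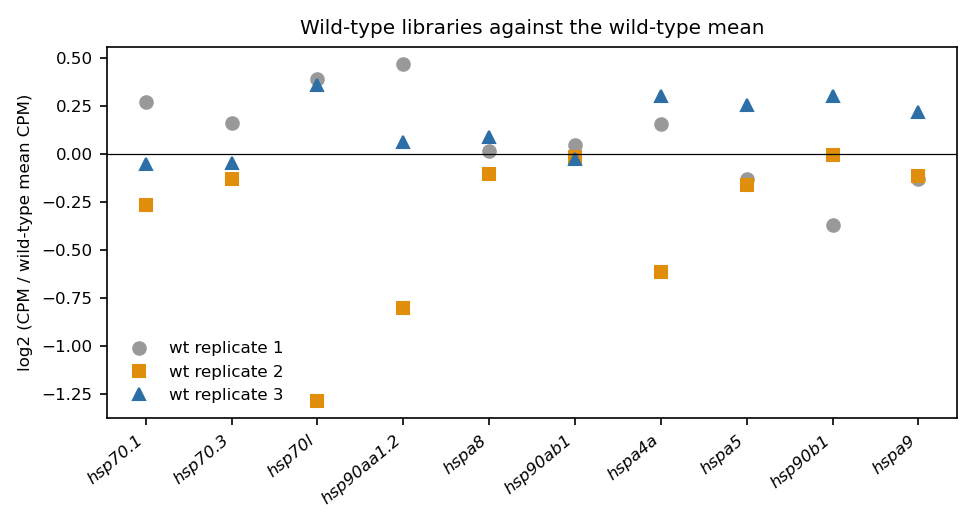
Log2 ratio of each wild-type library to the wild-type mean CPM of the gene (vertical axis) for the 10 genes, with 1 symbol and colour for each of the 3 libraries. Wild type 3 (blue triangles) is the highest for hspa8, hspa4a, hspa5, hsp90b1 and hspa9, and wild type 2 (orange squares) is the lowest for the 4 inducible genes on the left.

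The whole table was also fitted without wild type 3. Log2 fold changes were then -1.28 for hsp70.3, -1.17 for hsp70.1, -1.85 for hsp70l and -1.60 for hsp90aa1.2. Adjusted p-values from edgeR were 1.51e-04 for hsp70.3 and 0.0127 for hsp70.1, but 0.0553 for hsp90aa1.2, whose call was lost. The fold change of hsp90aa1.2 stayed near the -1.63 of all libraries. Its call was also lost without mutant 2 (adjusted p 0.0675) or mutant 3 (0.0803). Hsp70l was 3.59-fold lower in mutants in this fit (adjusted p 0.121), against 4.18-fold with all libraries (adjusted p 0.0507). Hspa8 was at -0.24 (adjusted p 0.0464) and hsp90ab1 at -0.29 (adjusted p 0.0124). Hspa5 was at -0.28 (adjusted p 0.123) and hspa9 at -0.02 (adjusted p 0.868), and hsp90b1 turned to 0.14 (adjusted p 0.489). In this fit 4 of the 10 genes fell, where 14.6% of all genes tested did and 32.7% were called in either direction. Without wild type 2 the log2 fold change was -2.44 for hsp70l (adjusted p 0.0103) and -1.91 for hsp90aa1.2 (adjusted p 0.00101). In that fit 6 of the 10 genes fell, where 2186 of the 18445 genes tested did and 4664 were called in either direction. Leaving out wild type 1, the highest wild-type library for the 4 inducible genes, gave smaller falls for each of them. These were -1.17 for hsp70.3, -0.99 for hsp70.1, -1.82 for hsp70l and -1.33 for hsp90aa1.2. The edgeR adjusted p-values were 1.96e-04, 0.00910, 0.121 and 0.0278. Of the 10 genes 4 fell there, where 2178 of the 18435 genes tested did and 4587 were called in either direction.

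**Figure D4:**
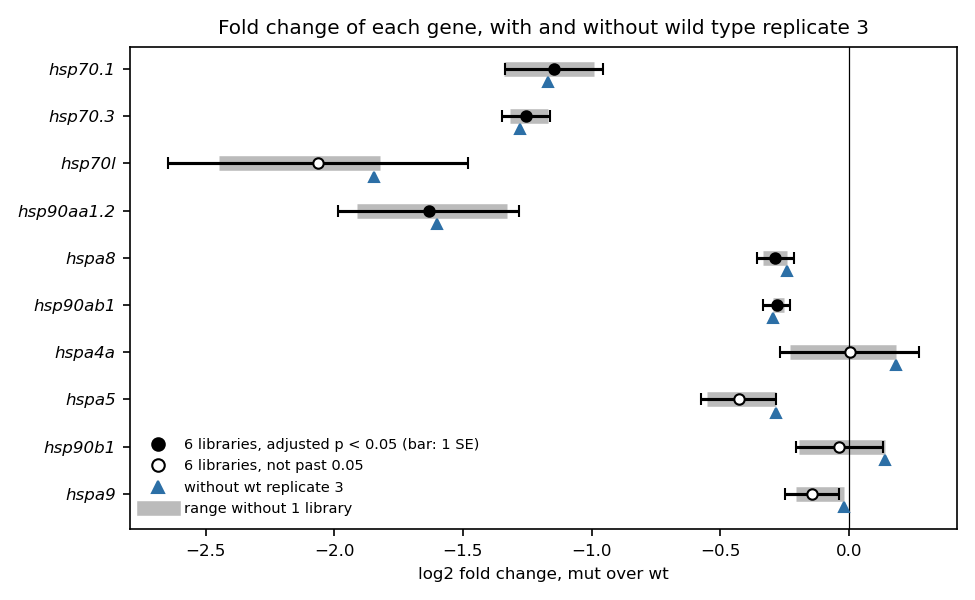
Log2 fold change, mutant over wild type (horizontal axis), of the 10 genes. Circles with bars of 1 SE are the fit of 6 libraries, filled where the edgeR adjusted p was under 0.05. Blue triangles are the fit without wild type 3, and grey bands span the 6 fits that each left out 1 library. Triangles stay near the circles for hsp70.3 (-1.28 and -1.25) and cross 0 for hsp90b1 (0.14 and -0.04).

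Genes that work with these chaperones were taken from 9 lists with 172 entries, of which 156 were matched and 142 tested. Of these 24 rose (16.9%) and 18 fell (12.7%), shares near or below the 17.5% and 16.4% of all genes tested. Without wild type 3, 30 of these genes rose and 18 fell, where 3308 of all 18286 genes tested rose and 2670 fell. The counts of each list below are to be read beside the 17.5% higher and 16.4% lower of all genes tested. Medians below are log2 fold changes, and the median of all genes tested was -0.01. The J-domain list had a median of 0.14, with 4 of 30 genes higher and 1 lower, and without wild type 3 it had 7 higher and a median of 0.24. The gene that fell was dnajb1b, the stress-inducible HSP40 partner of HSP70, at 214, 233 and 251 CPM in mutants, against 913, 580 and 850 CPM in wild type (-1.75 on the log2 scale with SE 0.169, adjusted p 2.69e-04 in edgeR). Wild type 2 was the lowest wild-type library here too, and the groups did not overlap. Dnajb2, another J-domain gene, rose by 2.09 on the log2 scale (SE 0.151, edgeR adjusted p 2.99e-05). The most abundant other J-domain gene, dnaja2a, was at 246 ± 16.7 CPM in mutants, against 226 ± 8.36 CPM in wild type (SD, n = 3 each).

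Of 12 nucleotide exchange and partner factors, 3 rose and 1 fell, with a median of 0.12. Bag3, a nucleotide exchange factor that links HSP70 to autophagy, was at 15.4, 10.7 and 11.1 CPM in mutants, against 4.11, 3.00 and 3.69 CPM in wild type (1.78 on the log2 scale with SE 0.191, adjusted p 2.09e-04 in edgeR). Bag6 rose by 0.33 on the log2 scale (edgeR adjusted p 0.0139, and 0.0511 without wild type 2), and st13 was at 78.3 ± 5.25 CPM in mutants, against 72.2 ± 0.467 CPM in wild type (SD, n = 3 each). Hspbp1 was the gene that fell, by 0.57 on the log2 scale (edgeR adjusted p 0.0491), with overlapping groups. Its call was lost in the fits without wild type 3 (-0.39, adjusted p 0.145), wild type 1 (0.121) or any 1 mutant (0.0642 to 0.131). It was also lost with median-ratio scaling (edgeR adjusted p 0.0508), a filter on the mean count (0.0503) and the replicate block (0.0585). Among 18 HSP90 co-chaperones tested 1 fell, with a median of 0.03. It was ahsa1b, which stimulates the HSP90 ATPase, at 24.5, 24.8 and 22.3 CPM in mutants, against 44.0, 35.9 and 47.9 CPM in wild type (-0.84 on the log2 scale with SE 0.115, adjusted p 7.93e-04 in edgeR). Fkbp5 was at 959 ± 106 CPM in mutants, against 1141 ± 223 CPM in wild type, and stip1, which bridges HSP70 and HSP90, was at 78.4 ± 4.42 CPM in mutants, against 89.6 ± 5.47 CPM in wild type (SD, n = 3 each). Neither passed in the fit of 6 libraries. Without wild type 3 fkbp5 passed, at -0.40 (adjusted p 0.0178).

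Of the heat shock transcription factors, hsf1, the main activator of the inducible genes, was at 37.4, 34.0 and 37.4 CPM in mutants, against 40.4, 42.1 and 41.7 CPM in wild type. Its log2 fold change of -0.19 (SE 0.0760) had an edgeR adjusted p of 0.0854, and hsf2 was at -0.16 (adjusted p 0.197). Without scaling factors both passed, hsf1 at -0.29 (adjusted p 0.0230) and hsf2 at -0.27 (adjusted p 0.0423). Of 5 genes tested in this list 2 rose, with hsf5 rising most, at 3.60, 2.56 and 4.61 CPM in mutants, against 0.0786, 0.212 and 1.05 CPM in wild type (edgeR adjusted p 0.0251). This call was lost without the filter (0.0679) and without mutant 1, mutant 3 or wild type 2 (0.0605, 0.0672 and 0.0718).

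Of 14 small heat shock protein and other heat-inducible entries, 5 were tested, and 2 rose and 1 fell, with a median of 0.23. Hspb1, the small heat shock protein HSP27, was at 4.71, 3.89 and 4.33 CPM in mutants, against 16.0, 11.0 and 24.5 CPM in wild type (-2.00 on the log2 scale with SE 0.282, adjusted p 0.00156 in edgeR). Without wild type 3, its highest library, the change was -1.65. Hmox1a, heme oxygenase, rose by 0.69 (edgeR adjusted p 0.0117), and serpinh1a, a collagen chaperone of the ER, by 1.53 on the log2 scale (edgeR adjusted p 0.0291). The serpinh1a call was lost without mutant 2, mutant 3, wild type 1 or wild type 2 (adjusted p 0.111, 0.0591, 0.0926 and 0.0878). Of 10 other HSP70 and HSP90 genes tested 2 rose and 1, hsp70.2, fell, with a median of 0.06 (0.26 without wild type 3). Hspa12b rose most, at 59.9, 51.1 and 51.7 CPM in mutants, against 32.0, 29.5 and 23.2 CPM in wild type (0.94 on the log2 scale with SE 0.128, adjusted p 7.77e-04 in edgeR).

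Of 27 ER folding and stress genes 5 rose and 2 fell, with a median of 0.19. Without wild type 3 these counts were 9 and 2, where 3308 of all 18286 genes tested rose. Pdia5, a disulfide isomerase, was at 51.6, 51.3 and 56.3 CPM in mutants, against 25.3, 26.1 and 26.3 CPM in wild type (1.04 on the log2 scale with SE 0.0760, adjusted p 3.18e-05 in edgeR). Herpud1, which acts in ER-associated degradation, was at 159, 164 and 150 CPM in mutants, against 254, 257 and 268 CPM in wild type (-0.72 on the log2 scale with SE 0.0694, adjusted p 1.20e-04 in edgeR). Xbp1 and atf4b, transcription factors of the unfolded protein response, did not pass, at 0.20 and 0.14 on the log2 scale (adjusted p 0.119 and 0.341). Of 12 mitochondrial protein quality control genes 3 rose, phb2b most (0.58, edgeR adjusted p 0.0268), with a median of 0.13 (0.25 without wild type 3). The phb2b call was lost without scaling factors (adjusted p 0.0551) and without mutant 1, mutant 2, wild type 1 or wild type 2 (0.0584 to 0.0797). Hspd1, the mitochondrial chaperonin HSP60, was at 53.6, 69.4 and 53.7 CPM in mutants, against 70.5, 72.2 and 103 CPM in wild type (log2 fold change -0.48, edgeR adjusted p 0.0705, DESeq2 adjusted p 0.0198), and phb2a was at 65.7 ± 1.13 CPM in mutants, against 59.5 ± 6.39 CPM in wild type (SD, n = 3 each). Wild type 3 was the highest wild-type library for 10 of these 12 genes, as it was for hspa9. It was also the highest for 54.9% of all partner genes tested and 37.6% of all genes tested.

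Immediate early genes, which respond within minutes to stress and growth signals, were set beside the inducible chaperones. Of 23 tested 11 fell and 3 rose, with a median of -0.44, where 16.4% of all genes tested fell and 17.5% rose. Without wild type 3 these counts were 11 and 0, where 2670 of all 18286 genes tested fell and 3308 rose. Fosaa, a FOS gene, fell by 2.31 on the log2 scale (SE 0.207, edgeR adjusted p 8.42e-05), at 3.04, 2.96 and 1.98 CPM in mutants, against 14.2, 10.6 and 14.7 CPM in wild type. Nr4a1, an orphan nuclear receptor, was at 2578, 2501 and 2086 CPM in mutants, against 4432, 4147 and 4136 CPM in wild type (log2 fold change -0.83, edgeR adjusted p 1.83e-04). Dusp1 was at 2040 ± 119 CPM in mutants, against 1783 ± 82.6 CPM in wild type (SD, n = 3 each; edgeR adjusted p 0.0590). Klf4 rose most, by 1.85 on the log2 scale (edgeR adjusted p 0.0287), but was at 2.10 CPM or less in every library. Its call was lost without mutant 1, mutant 2, wild type 2 or wild type 3 (adjusted p 0.0699 to 0.104). The handling of the animals and the time to lysis were not labelled per library, and the part of these genes' signals in the chaperone values was not tested.

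**Figure D5:**
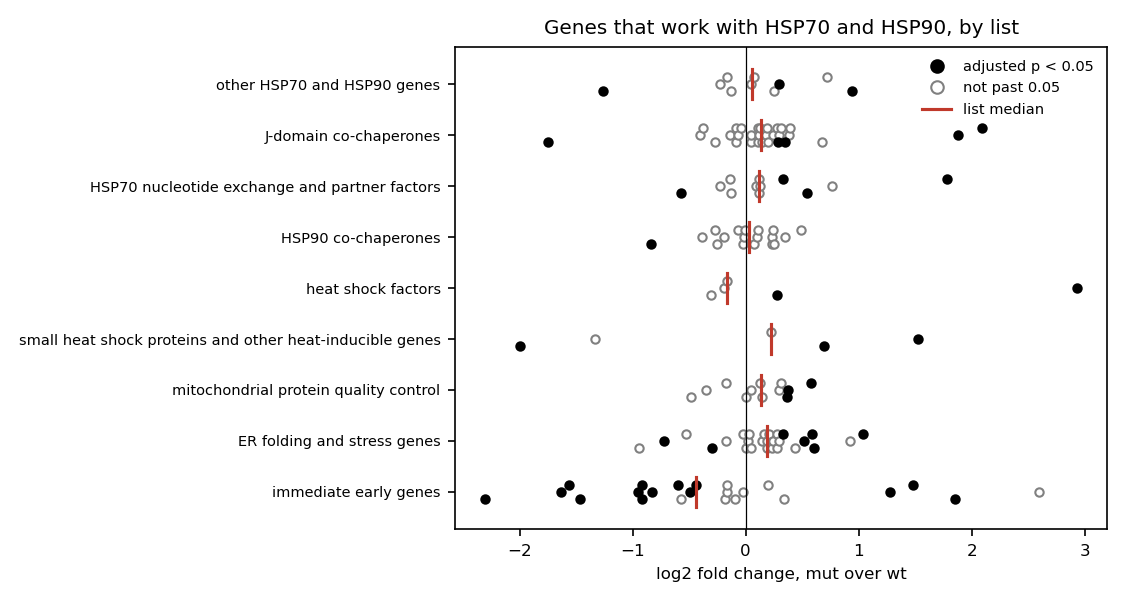
Log2 fold change, mutant over wild type (horizontal axis), of each of the 142 partner genes tested, in 9 lists down the page. Filled circles passed an edgeR adjusted p of 0.05, open circles did not, and red lines are list medians. Medians run from 0.03 to 0.23 except for the heat shock factors (-0.16) and the immediate early genes (-0.44).

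The genes most like hsp70.1 and hsp70.3 over the 6 libraries were sought among 8651 other genes with a mean of at least 10 CPM. By Pearson's r with the mean log2 CPM of this pair, they were pck2 (0.999), si:dkey-261j15.2 (0.997), PHLPP1 (0.996), hsp70.2 (0.996) and RAP1GAP (0.996). Their changes were unequal, from -1.26 for hsp70.2 to -0.10 for PHLPP1 on the log2 scale, the last with an edgeR adjusted p of 0.264. The 6 libraries fall into 2 genotypes, so these values mostly restate that difference.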

How the data were processed

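Paired-end reads had been mapped by the authors with STAR 2.5.2b-1, and featureCounts 1.6.0.1 gave counts for Ensembl genes. The deposited table holds these raw counts, unscaled, for 3 IT325 mutant and 3 wild-type libraries. Poly-A RNA was made into stranded libraries. Default settings are stated for all tools unless noted otherwise, under which featureCounts ignores strand and leaves out reads that map to several places. Counts of close copies, and of genes that overlap on opposite strands, are therefore uncertain. Of 32105 genes, 81.8% had a symbol in a separate list. Where symbols were shared or lacked a copy suffix, genes were matched by neighbours in a RefSeq annotation of another assembly, GRCz12tu, if at least 4 neighbours were shared between windows reaching 8 named genes either way in the table and 15 either way in the annotation. The identifier of hsp70.2 was taken from the study. Of 220 entries in all lists, 199 were matched.

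Genes were kept by filterByExpr (minimum count 10) in edgeR 4.0.16 under R 4.3.3, scaled by TMM, and tested by a robust quasi-likelihood model of genotype alone. Two-sided p-values received the Benjamini-Hochberg adjustment across all 17828 genes tested. Log2 fold changes, mutant over wild type, used a prior count of 0.125, and standard errors were derived from the F statistic. The steps were run on counts simulated from the fitted model with a small share of genes changed. This does not test them under the large shifts seen here. Alternatives were other scalings, other filters, DESeq2 1.42.0, a replicate block, an adjusted p under 0.01 and fits without 1 library. The chaperone genes and lists were chosen with earlier results of these data known. From each list the 2 most abundant genes and the largest rise and fall among called genes are named. Hsp90aa1.1 and hspa8b were named after their values were seen. The labels give no batch. The p-values set the difference between genotypes against the spread between these libraries, estimated partly from all genes tested. They do not cover a batch that the labels leave out.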

Additional observations from a re-analysis of the deposited data

How the results depend on the processing

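The number of the 10 chaperone genes called was 5, all lower in mutants. It lay between 4 and 7 under the other scalings, filters, DESeq2 and the fits without 1 library (4 to 6 in the last). Over these fits 2178 to 3742 of all genes tested were called lower, with 17828 to 25909 genes tested. At an adjusted p under 0.01, 3 of the 10 genes were called and 3419 genes in all, against 6039 in all at 0.05. Hsp70.3, hsp70.1 and hsp90ab1 were called in each of these fits. Hspa4a, at 0.0027, turned to -0.027 with upper-quartile scaling and -0.11 without scaling factors, and ranged from -0.23 (without wild type 2) to 0.18 (without wild type 3). Hsp90b1, at -0.04, ranged from -0.20 (without wild type 1) to 0.14 (without wild type 3). The cause was not tested. Replicate numbers are shared between the groups. Deviations of libraries with the same number correlated at 0.0559, 0.122 and 0.0939, against -0.160 to 0.0643 for libraries with different numbers. All of these, taken over all genes tested, were weak, and the numbers were not taken as pairs. For hsp70.3, hsp70.1, hsp70l and hsp70.2, however, replicate 2 was the lowest library of each group. Mutant 1 was almost as low for hsp70.1 and hsp70.2, and mutant 3 was the lowest mutant for hsp90aa1.2. With the replicate block 6 of the 10 genes and 5370 of all genes were called, and hsp70l passed at -1.96 (edgeR adjusted p 0.00962). Hsp90aa1.2 was then at -1.57 (edgeR adjusted p 0.00326). When no scaling was used, 2428 genes were called higher in mutants and 3742 lower, against 3122 and 2917 with TMM. Hspa5, not called at -0.43, was called with upper-quartile scaling (-0.46, adjusted p 0.0439), without scaling factors (-0.53, adjusted p 0.0233) and without mutant 2 (-0.55, adjusted p 0.0275), all in edgeR. With 3 libraries in each group, hsp70l, which spread most within wild type, was called in 1 of the 6 fits without 1 library.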
